A study of Rattus norvegicus with 252 samples.

Results

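Striatal RNA of 2-month-old Long Evans rats was compared between 10 Q130 rats, heterozygous for a huntingtin knock-in allele with a lengthened run of glutamine codons, and 10 wild-type (WT) rats without it. Each genotype had 5 females and 5 males. These 20 libraries were chosen by their titles, out of 252 samples in the series. The series covers the striatum, cortex, hippocampus and cerebellum at 2, 6 and 12 months, with 240 study libraries and 12 repeat libraries from a later batch, which were not used here. All 20 libraries belonged to the first batch and the labels name no treatment. The knock-in allele is present in all cells of the animal, so bulk tissue mixes neurons, glia and vessels that all carry it. In such tissue, fewer cells of a type and less RNA per cell cannot be told apart.

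The striatum is the input station of the basal ganglia, the circuits that select movements. Most of its neurons are medium spiny neurons, which receive glutamate input from the cortex and dopamine from the midbrain and release GABA. In Huntington disease, caused by a lengthened repeat in the huntingtin gene, these neurons are lost early, and many of their characteristic RNAs fall in patients and in animal models. The comparison asks which striatal RNAs differ between the genotypes at the youngest age of the study.

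Total counts ran from 31.2 to 41.0 M in Q130 libraries and from 30.9 to 37.6 M in WT libraries (M, 1000000 counts). Between 18091 and 18526 genes were detected in Q130 libraries and between 18223 and 18567 in WT libraries. Total counts, genes detected, the share of counts in the 20 most counted genes and the TMM scaling factor differed by less than the spread between libraries (two-sided permutation test with 100000 resamples, lowest adjusted p = 0.857 over these measures). Across genes, the log2 CPM of these 20 libraries correlated with those of the striatal libraries of all ages at a median of 0.980 to 0.985, and none stood apart. Each library resembled the striatum most. Among the libraries of 2 months, its median correlation was 0.984 to 0.988 with striatal libraries in both genotypes, against at most 0.943 with those of any other tissue. Between the sexes, 24 genes differed, and the 6 beyond 16-fold had no overlap between females and males. These 6 were picked by their difference in the same libraries, so the lack of overlap is partly fixed by that choice.

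The files identify genes by Ensembl rat identifiers alone, and 0 of 32883 matched the reference table of names. Named pathways and cell type markers were therefore not measured here, and which identifier belongs to huntingtin was not determined. Genes are described below through their levels, their tissue of highest expression and their behaviour in other libraries, and 4 are given by identifier.

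In the striatum at 2 months, 182 genes rose and 211 fell in Q130 rats, out of 15500 tested. These 393 called genes, with an adjusted p under 0.05 in edgeR's quasi-likelihood test with sex as a covariate, made up 2.54% of the genes tested, with 1.17% called higher and 1.36% called lower. The genes that rose had a median log2 fold change of 0.18 and reached 0.70. The genes that fell had a median of -0.18 and reached -1.10. Only 2 of the genes that rose and 3 of those that fell changed by more than 1.5-fold, and 48 of all 393 by more than 1.2-fold. The 95% interval of the fold change lay within 1.5-fold for 14167 of the genes tested, or 91.4%, so larger differences than that were outside the interval for most striatal genes.

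The genes that changed were more abundant than most. The median level was 79.1 CPM (counts scaled to a library total of 1000000) for genes that rose and 43.3 CPM for those that fell, against 18.0 CPM over all genes tested. On the TPM scale, which allows for transcript length, the medians were 48.8 for genes that rose, 20.5 for those that fell and 14.1 for all. The share of genes called was 0.27% below 1 CPM and 9.15% at 300 CPM and above. The precision differed too, with a median standard error of 0.22 on the log2 scale below 1 CPM and 0.03 at 300 CPM and above.

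The gene with the smallest adjusted p, ENSRNOG00000011073, fell. Its level in Q130 libraries was 92.7 CPM at the lowest, 114 CPM at the median and 120 CPM at the highest, against 148, 152 and 157 CPM in WT libraries. Every Q130 library lay below every WT library, and no other gene among the 15500 tested separated the genotypes in this way (0.00645% of them). Its mean was 113 ± 7.90 CPM in Q130 and 152 ± 3.37 CPM in WT striatum (SD, n = 10 each). The log2 fold change of -0.43 ± 0.03 (SE) had an edgeR adjusted p of 4.57e-08. Each sex gave the same direction on its own, with -0.41 ± 0.04 in females (SE, edgeR adjusted p = 0.000244) and -0.46 ± 0.06 in males (SE, edgeR adjusted p = 0.00902).

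ENSRNOG00000020525, which shared the next adjusted p with other genes and had the smallest unadjusted p of those that fell among them, fell by less. Its Q130 libraries ran from 80.8 CPM through a median of 92.4 CPM to 102 CPM, and its WT libraries from 94.0 CPM through 108 CPM to 112 CPM. The groups overlapped, with 6 of 10 Q130 libraries below all WT libraries. The log2 fold change was -0.20 ± 0.03 (SE) with an edgeR adjusted p of 0.0126. Per length this gene was expressed most in the striatum of all 4 tissues, at 26.9 ± 1.53 TPM in Q130 and 31.0 ± 1.94 TPM in WT striatum (SD, n = 10 each).

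Of the 4 genes that rose and shared the smallest adjusted p among those that rose, the 2 with the smallest unadjusted p are described. Both were expressed most in another tissue. ENSRNOG00000004179 had 7.86, 10.8 and 13.6 CPM at the lowest, median and highest in Q130 striatum, against 6.15, 7.53 and 9.16 CPM in WT striatum. The groups overlapped, and 8 of 10 Q130 libraries lay above all WT libraries. The log2 fold change was 0.50 ± 0.08 (SE) with an edgeR adjusted p of 0.0126. Its level was higher in the hippocampus of the same age, at 44.4 ± 9.17 TPM in Q130 and 39.9 ± 8.0 TPM in WT, than in the striatum, at 13.7 ± 2.10 TPM in Q130 and 9.76 ± 1.51 TPM in WT (SD, n = 10 each).

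ENSRNOG00000057221, an abundant transcript, had 260, 328 and 356 CPM at the lowest, median and highest in Q130 striatum and 248, 271 and 300 CPM in WT striatum. The groups overlapped here too, with 8 of 10 Q130 libraries above all WT libraries and 2 Q130 males within the WT range. The log2 fold change was 0.26 ± 0.04 (SE) with an edgeR adjusted p of 0.0126. Its hippocampal level was 383 ± 34.2 TPM in Q130 and 395 ± 24.2 TPM in WT, against 146 ± 14.3 TPM in Q130 and 122 ± 9.37 TPM in WT striatum (SD, n = 10 each).

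**Figure D1:**
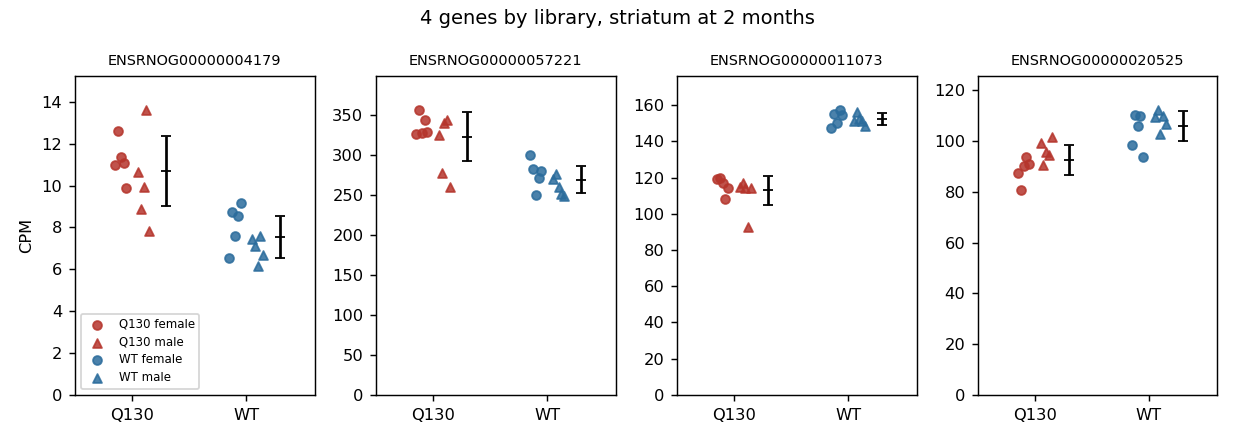
CPM of 4 genes in each library of the striatum at 2 months, Q130 left of WT, with females as circles and males as triangles; black marks show the mean and SD of 10 libraries. For ENSRNOG00000011073 the highest Q130 library, at 120 CPM, lies below the lowest WT library, at 148 CPM, while the other 3 genes overlap.

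Genes that mark the striatum had higher estimates in Q130 rats. Without names, such genes were taken from the WT libraries of 6 months, which are other animals: a gene counted as enriched in a tissue when its mean log2 CPM there was at least 2 above that of each other tissue. These libraries, also used for the WT tissue levels below, include the cortex of WT male 4. Its median correlation with cortex libraries was 0.918, under the 0.97 used below to set libraries apart, and it was kept. Of 104 striatum-enriched genes, 94 had a higher and 10 a lower estimate in Q130 striatum, and the median log2 fold change was 0.15, against 0.00 over all genes tested. Of these, 18 passed the test as higher and 0 as lower, while 1.17% of all genes tested were called higher. These 18 calls depended on single libraries as the total did. They were 28 without Q130 male 5, 10, 8 and 6 without Q130 females 2, 3 and 4, 6 and 4 without Q130 males 1 and 3, 7, 6 and 8 without WT females 2, 3 and 4, and 7, 6 and 5 without WT males 1, 4 and 5. DESeq2 called 29 of the group and limma-voom with quality weights 43, while 11 were called with no filter on low counts, 2 in a single fit over the 80 libraries of 2 months, and 0 in either sex alone and in a single fit over the 60 striatal libraries. In the leave-one-out fits the median of the group stayed between 0.13 and 0.17.

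Genes that mark other brain regions had lower estimates. Of 53 cortex-enriched genes, 24 were expressed enough in the striatum to be tested, and 18 of these had a lower estimate. Their median log2 fold change was -0.20, and 1 was called lower. Of 36 tested hippocampus-enriched genes, out of 55, 25 had a lower estimate (median -0.09), and 1 was called higher. Their median was -0.15 without WT male 3 and -0.22 with no filter on low counts, which tests all 55. Of 195 tested cerebellum-enriched genes, out of 291, 128 had a lower estimate (median -0.05), and 2 were called higher. Over all genes tested, 1.17% were called higher and 1.36% lower. The cerebellum-enriched median was 0.024 in males alone, -0.12 in females alone, -0.03 without WT female 4 and -0.08 without WT male 3.

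In single libraries, the mean log2 CPM of the striatum-enriched genes was 4.03 at the lowest, 4.20 at the median and 4.31 at the highest in Q130, against 3.86, 4.02 and 4.17 in WT. All 10 Q130 libraries lay above the WT median, although the ranges overlapped. The mean over the cortex-enriched genes was 0.88, 1.07 and 1.45 log2 CPM in Q130 and 1.02, 1.35 and 1.56 log2 CPM in WT, with 9 of 10 Q130 libraries below the WT median. The mean over the hippocampus-enriched genes was below the WT median in all 10 Q130 libraries, and that over the cerebellum-enriched genes in 5 of 10.

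**Figure D2:**
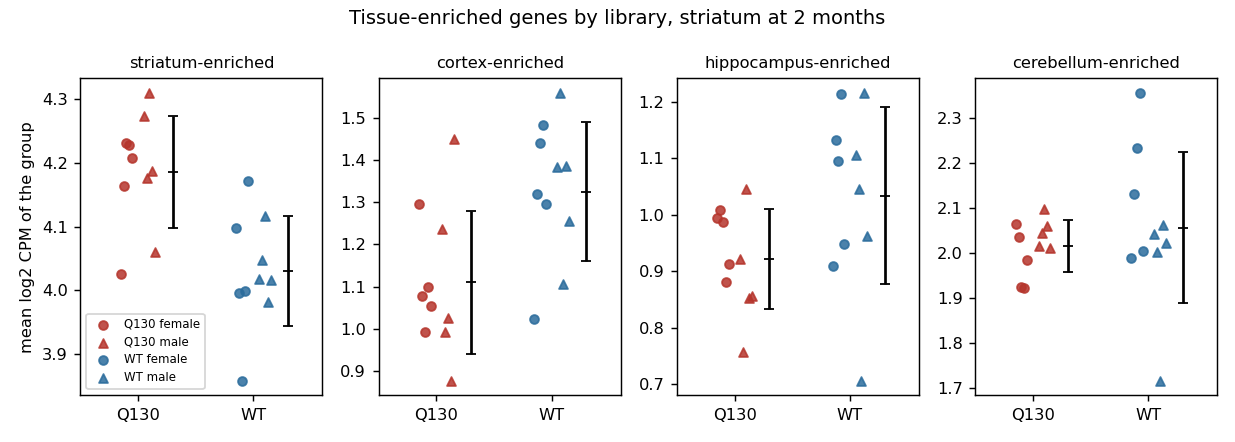
Mean log2 CPM, per library of the striatum at 2 months, of the genes enriched in each of 4 tissues of WT rats of 6 months, Q130 left of WT; circles are females, triangles males, and black marks the mean and SD of 10 libraries. Q130 libraries run from 4.03 to 4.31 for striatum-enriched genes and from 0.88 to 1.45 for cortex-enriched genes, against 3.86 to 4.17 and 1.02 to 1.56 in WT libraries, and all these ranges overlap.

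These library means moved with the genotype difference as a whole. The second principal component of the 20 libraries held 10.4% of the variance, and genotype explained 48.9% of it. On it, 8 of 10 Q130 libraries lay below 0 and 9 of 10 WT libraries above 0. The Q130 libraries above 0 were those of female 1 and male 5, which also had the 2 lowest striatum-enriched means of the Q130 group, at 4.03 and 4.06 log2 CPM. The first component held 14.7% of the variance, and sex explained 72.4% of it.

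When the striatum-enriched mean was added to the model as a covariate, 1 of 15500 genes was called, ENSRNOG00000011073, with a log2 fold change of -0.42 ± 0.05 (SE, adjusted p = 4.71e-05 by edgeR). At an unadjusted p under 0.05 there were 1010 genes, against 3036 without the covariate. Of the 182 genes that rose, 181 still had a higher estimate (median 0.09), and all 211 genes that fell still had a lower one (median -0.11). With the cortex-enriched mean as covariate, the same single gene was called, all 182 and all 211 genes kept their direction, and the medians were 0.13 and -0.14. Both covariates were chosen after the data had been seen. They come from these same libraries and differed between the genotypes. The standard error of ENSRNOG00000011073 was 0.034 without a covariate and 0.047 with the striatum-enriched mean. Whether the lower count of calls reflects lower precision or smaller estimates was not tested. The genes that rose and fell were called in these same libraries, so their kept directions are partly fixed by that choice.

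The genotype difference did not follow tissue preference evenly. Among 116 genes at least 3 log2 units higher in WT striatum than in the mean of the other 3 tissues, the median log2 fold change was 0.16, with 22 genes called higher and 0 lower. Among 54 genes at least 3 units lower there, it was -0.25, with 0 called higher and 1 lower. Between these ends, the 2014 genes from 0.5 to 1 unit higher in the striatum had a median of -0.04, and 31 of them were called higher and 84 lower. The shares over all genes tested were 1.17% called higher and 1.36% called lower. The striatum was the tissue of highest WT level for 120 of the 211 that fell, or 56.9%, and for 70 of 181 that rose, or 38.7%, against 29.3% of all genes.

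**Figure D3:**
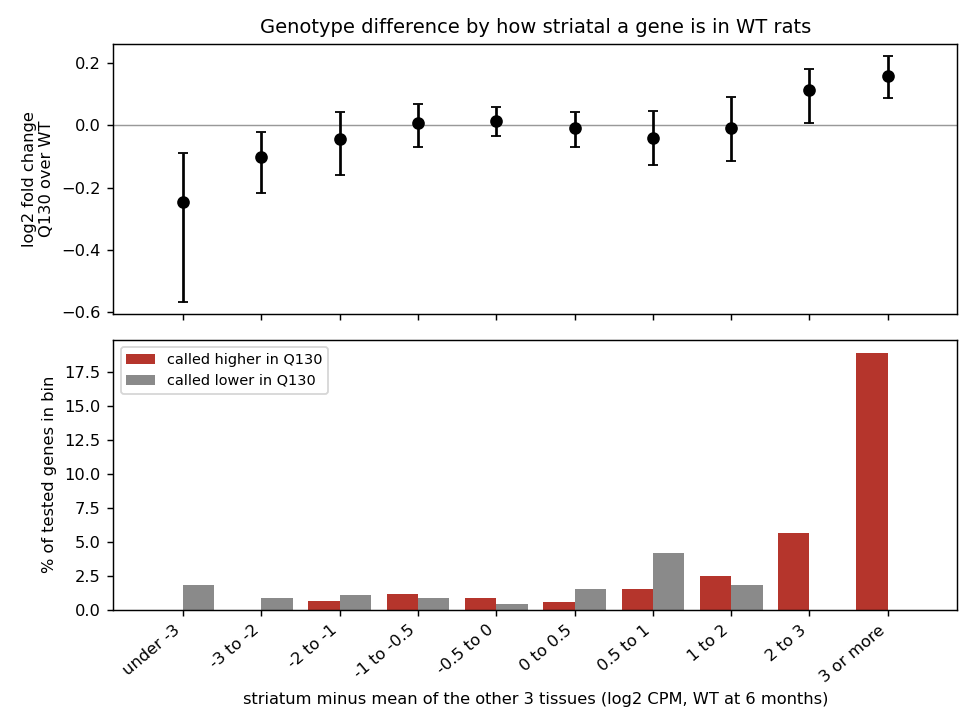
Upper panel: median (points) and quartiles (bars) of the log2 fold change, Q130 over WT, of genes binned by their level in WT striatum minus the mean of the other 3 tissues at 6 months. Lower panel: percentage of each bin called higher or lower in Q130. The medians are -0.25 and 0.16 in the outermost bins, while the bin from 0.5 to 1 has a median of -0.04, with 84 of its 2014 genes called lower and 31 higher. Of all genes tested, 1.36% were called lower and 1.17% higher.

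The number of called genes depended on single libraries. Leaving out 1 library at a time gave between 79 and 1159 calls. Without Q130 male 5 there were 1159 calls, without WT female 5 there were 618, and without Q130 female 1 or WT female 1 there were 610 each. The count fell to 170, 215 and 151 without Q130 females 2, 3 and 4, to 118 and 79 without Q130 males 1 and 3, to 106, 128 and 246 without WT females 2, 3 and 4, and to 201, 120 and 82 without WT males 1, 4 and 5. In every one of the 20 fits 70 genes were called, of which 31 rose and 39 fell, and these include the 4 genes described by identifier. The 31 and the 39 had median log2 fold changes of 0.20 and -0.20. ENSRNOG00000004179, ENSRNOG00000057221 and ENSRNOG00000020525 were not called in either sex alone, in a single fit over the 60 striatal libraries of all ages, in one over the 80 libraries of 2 months, or with either covariate (edgeR adjusted p between 0.0932 and 0.844). Their log2 fold changes in these fits ran from 0.45 to 0.54 for ENSRNOG00000004179, from 0.15 to 0.28 for ENSRNOG00000057221 and from -0.23 to -0.15 for ENSRNOG00000020525.

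**Figure D4:**
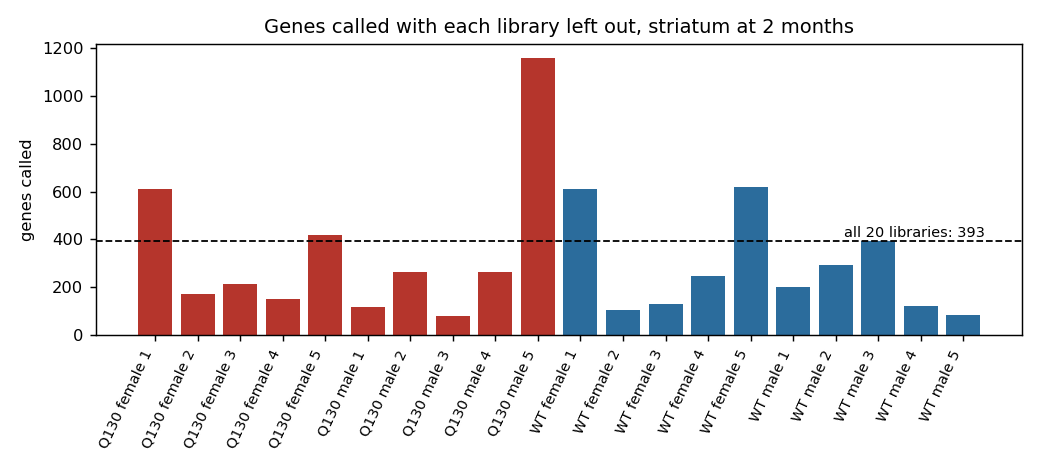
Number of genes called between Q130 and WT striatum at 2 months with the named library left out, Q130 libraries in red left of WT libraries in blue; the dashed line is the count with all 20 libraries. The count is 79 without Q130 male 3, 1159 without Q130 male 5 and 393 with all libraries.

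Most differences had the same direction in females and males. With 5 rats per genotype, females alone gave 2 calls (0.0129% of the genes tested) and males alone 1 (0.00641%), and 0 genes were called for a difference of the genotype effect between the sexes in edgeR's quasi-likelihood test. Without adjustment, 660 genes had a p under 0.05, and limma-voom made 0 calls as well. Genes picked in one sex were then looked up in the other, which shares no animals with it. At an unadjusted p under 0.001, 0.401% of genes were picked in females and 0.545% in males. Of the 25 genes that were higher in Q130 females at an unadjusted p under 0.001, 23 had a higher estimate in males, with a median of 0.18. Of the 37 that were lower, 34 had a lower estimate in males, with a median log2 value of -0.12. Of the 36 and 49 genes picked in males in the same way, 33 and 45 kept their direction in females. Over all genes, 49.4% had a higher estimate in males and 50.1% in females.

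The other ages came from other animals. In the 6-month striatum, 74 of the 182 genes that rose had a higher estimate in Q130 rats (median log2 fold change -0.02), and 79 of the 211 that fell had a lower one, with a median of 0.02. At 12 months the estimates lay mostly on the other side of 0. Only 11 of the 182 genes that rose had a higher estimate (median -0.17), and 55 of the 211 that fell had a lower one, with a median of 0.07. Over all genes the median at 12 months was 0.02, and 56.4% had a higher estimate, against 53.1% at 6 months. The striatum of these ages held 1 Q130 library at 6 months and 2 at 12 months whose median correlation with their tissue was below 0.97. Without them, 58 of 182 and 47 of 211 genes kept their direction at 6 months, and 6 of 182 and 11 of 211 at 12 months. Over all genes, 49.1% at 6 months and 50.4% at 12 months had a higher estimate without these libraries. With all libraries 0 genes were called at either age (edgeR, with 599 at 6 months and 1505 at 12 months under an unadjusted p of 0.05), and without them 1 gene was called at each age, in both cases one of the 211 that fell. The medians at 12 months were then -0.13 for genes that rose and 0.09 for genes that fell. In the cortex at 6 months, 40 of 179 measured genes that rose had a higher estimate (median -0.07), against 51.2% of all genes. Of the 211 that fell, 29 had a lower one there (median 0.08). Without the WT cortex library that stood apart it was 29 of 179 and 45 of 211. In the cerebellum at 12 months, 99 of 173 and 121 of 209 genes kept their direction (medians 0.01 and -0.01).

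The difference between the ages was also tested directly. Between the genotype effects of 2 and 12 months, 48 of 15906 genes were called (0.302%), and 29 of these were among the 393. Of these 29, 18 were genes that rose, all with a higher log2 fold change at 2 months, and 11 were genes that fell, all with a lower one. The contrast uses the same 2-month libraries that chose the 393 genes, so the direction is partly fixed by the choice. Without the 2 libraries that stood apart the count was 1493 of 15974 genes (9.35%), with 332 among the 393. Age and batch cannot be told apart here, since all 12-month libraries came from the second batch.

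Between 2 and 6 months, which share a batch, 1 of 15948 genes was called (0.00627%), and it was not among the 393. Without the 1 library that stood apart, 76 of 15985 genes were called (0.475%), 42 of them among the 393. Of these 42, 41 were genes that fell at 2 months, with a lower log2 fold change at 2 than at 6 months, and 1 had risen. This contrast also reuses the 2-month libraries that chose the 393 genes, so the overlap and the direction are partly fixed by the choice. The test of the age difference gave an adjusted p of 0.554 for ENSRNOG00000011073 between 2 and 6 months and of 0.954 between 2 and 12 months (edgeR).

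In the other tissues of the same rats, which played no part in choosing the 393 genes, the median estimates were close to 0. In the cortex at 2 months, 118 of 178 measured genes that rose had a higher estimate (median 0.01), and 142 of 211 that fell had a lower one (median -0.02). In the hippocampus it was 97 of 180, with a median of 0.01, and 155 of 211, with a median of -0.04. In the cerebellum it was 79 of 173 and 135 of 209, or 94 of 173 and 106 of 210 without the 2 Q130 libraries there that stood apart. The cerebellar medians were -0.006 and -0.028 with all libraries, and 0.005 and -0.003 without those 2. Over all genes, 50.4% had a higher estimate in the cortex, 49.7% in the hippocampus and 50.4% in the cerebellum, or 48.7% there without those 2 libraries. The same animals gave all 4 tissues, so these values do not come from separate rats. A direct test of whether the genotype effect differs between the 4 tissues made 0 calls among 16597 genes in edgeR, where 925 had a p under 0.05 before adjustment, and limma-voom made 0 calls too. The absence of calls in that test does not show that the tissues responded alike.

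**Figure D5:**
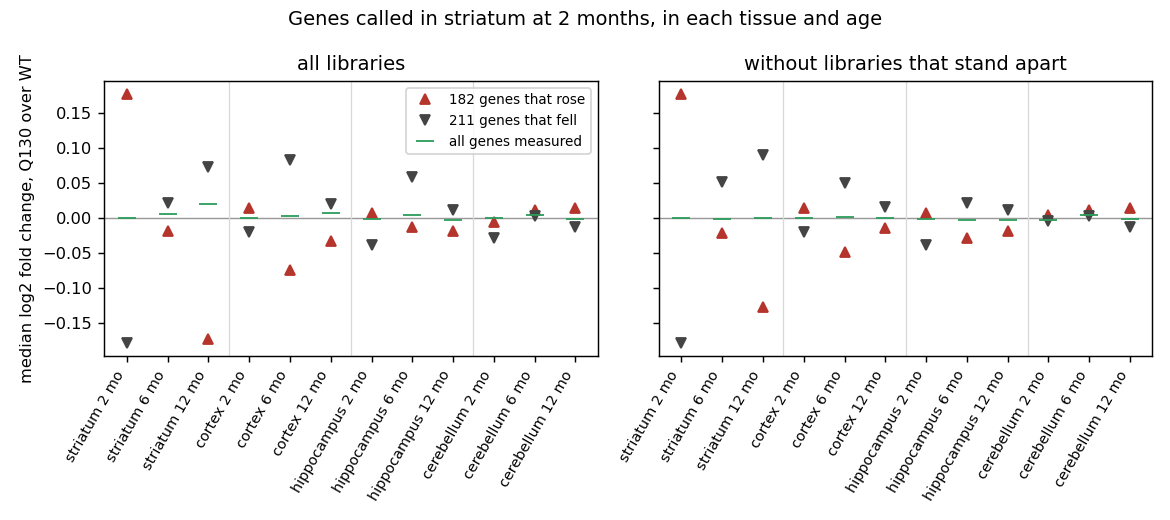
Median log2 fold change, Q130 over WT, of the 182 genes that rose and the 211 that fell in the striatum at 2 months, in each tissue and age, with all libraries (left) and without those that stood apart (right). The medians are 0.18 and -0.18 in the striatum at 2 months, where the genes were chosen, and -0.17 and 0.07 in the striatum at 12 months with all libraries.

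ENSRNOG00000011073 had a lower mean in Q130 rats in each of the 4 tissues at each of the 3 ages. In the cortex at 2 months it had 102, 145 and 154 CPM at the lowest, median and highest in Q130, against 169, 188 and 206 CPM in WT, with no overlap and a log2 fold change of -0.40 ± 0.05 (SE, adjusted p = 0.00109 by edgeR). In the hippocampus at 2 months its groups did not overlap either, at 112 to 184 CPM in Q130 and 206 to 232 CPM in WT, but the test missed the threshold over all genes (log2 fold change -0.36 ± 0.06, SE, edgeR adjusted p = 0.0760). In the striatum the log2 fold change was -0.31 ± 0.06 at 6 months (SE, edgeR adjusted p = 0.390) and -0.42 ± 0.07 at 12 months (SE, edgeR adjusted p = 0.0821), and 9 of 10 and 10 of 10 Q130 libraries lay below the WT median. These striatal Q130 groups include 1 library that stood apart at 6 months and 2 at 12 months.

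In the cerebellum, ENSRNOG00000011073 was called at 6 months, at -0.49 ± 0.06 (SE, edgeR adjusted p = 7.13e-05, 0.287% of genes called there), and at 12 months, at -0.50 ± 0.07 (SE, edgeR adjusted p = 0.00485, 1.57% called).

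None of the other 3 genes was called in another tissue or age in which it was tested, but their estimates there were not all small. In the striatum at 6 months, ENSRNOG00000004179 averaged 7.49 ± 5.56 CPM in Q130 and 5.54 ± 0.99 CPM in WT (SD, n = 10 each), and its log2 fold change was 0.44 ± 0.27 (SE). ENSRNOG00000057221 averaged 311 ± 134 CPM in Q130 and 267 ± 37.1 CPM in WT there (SD, n = 10 each), and its log2 fold change was 0.22 ± 0.17 (SE). The Q130 group of that age holds the library that stood apart. At 12 months, the striatal log2 fold changes were 0.03 ± 0.12 for ENSRNOG00000004179 and -0.14 ± 0.14 for ENSRNOG00000057221 (SE).

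ENSRNOG00000020525 had striatal log2 fold changes of -0.06 ± 0.09 at 6 months and -0.09 ± 0.08 at 12 months (SE). In the cortex at 6 months its estimate lay on the other side of 0. It averaged 41.5 ± 6.93 CPM in Q130 and 33.7 ± 6.95 CPM in WT cortex (SD, n = 10 each), with 9 of 10 Q130 libraries above the WT median and a log2 fold change of 0.31 ± 0.11 (SE, adjusted p = 0.708 by edgeR). The WT cortex group of that age holds 1 library that stood apart, at a median correlation of 0.918 with its tissue. At 2 months, the log2 fold change in the striatum minus that in the cerebellum was 1.31 ± 0.43 for ENSRNOG00000004179 (SE, adjusted p = 0.273 by edgeR), 0.50 ± 0.11 for ENSRNOG00000057221 (adjusted p = 0.102) and -0.30 ± 0.10 for ENSRNOG00000020525 (adjusted p = 0.273), and none of these differences passed the test. ENSRNOG00000004179 was too low in the cerebellum to be tested there alone, at 0.24 ± 0.15 TPM in Q130 and 0.47 ± 0.44 TPM in WT (SD, n = 10 each). Its difference of 1.31 therefore rests on few cerebellar counts. The cerebellar Q130 group of that age also holds 2 libraries that stood apart.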

How the data were processed

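The members, gene groups and tests were chosen with earlier results of these data known. Per the labels' protocols, total RNA was purified from frozen tissue with a Qiagen kit, and enriched fractions of it went into Illumina libraries. Aligner, counter and build: not given in the sources used here. Estimated counts (expected counts) per gene, as deposited by the authors, were rounded to whole numbers. A second table deposited by the authors, named for FPKM, sums to 1000000 per library and was read as TPM, for levels only. Of the per-sample columns, 12 were left unused: those written with a dot, taken from their names as the repeat libraries.

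The fit used filterByExpr, TMM factors and robust quasi-likelihood F tests in edgeR 4.0.16 (R 4.3.3), with Benjamini-Hochberg adjusted p under 0.05, and was tested on simulated data. limma 3.58.1 and DESeq2 1.42.0 served as alternatives. Tissue interactions kept the animal as a block. Replicates are separate animals, and no pair within a group agreed to within counting noise. Identifiers were named by the smallest adjusted p, 2 in each direction, with ties in it ordered by the unadjusted p. Lists written as symbols could not be matched.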

Additional observations from a re-analysis of the deposited data

Results flagged for a closer look

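Among 28 groups of 10 libraries examined, 1 held a library far from the others: ENSRNOG00000011073 was at 92.7 CPM in Q130 male 4, below the other 9 Q130 libraries. The gap to the next library made up 0.57 of the range of its group, against a cutoff of 0.466. That cutoff sets apart about 1 group in 20 by chance alone, but the 28 groups share the same libraries, so the count of 1 settles nothing. The cause was not tested. Without this library the log2 fold change was -0.40 ± 0.02 (SE, edgeR adjusted p = 1.00e-10).

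The genotype effect differed between 2 and 6 months in the striatum for 1 gene and between 2 and 12 months for 48 genes, by the test of the difference itself. The first count was 0 with relative log expression (RLE) factors. The second compares libraries of different batches.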

How the results depend on the processing

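Against 393 calls, DESeq2 gave 992 and limma-voom with quality weights 1443, while limma-voom gave 433, and other scalings and filters gave 297 to 460. Females alone gave 2 and males alone 1. A single fit over 60 striatal libraries gave 1 and one over the 80 libraries of 2 months 120. Each added covariate gave 1. Leaving out single libraries gave 79 to 1159. Replicate numbers did not pair the animals, since 0 of 10 pairs had correlated deviations above 0.1, and the replicate block gave 259. The first part of the animal identifiers, shared by both genotypes in 5 of 6 cases, gave 321 calls as a block in place of sex, with 226 of the 393 among them. The effect of 2 against 6 months gave 0 with RLE factors and 76 without the library that stood apart, and 2 against 12 months 1493 without 2 such libraries. The median of the striatum-enriched genes was -0.011 with their own mean as covariate, by construction. That of the cerebellum-enriched genes was 0.024 in males alone, 0.034 with the striatum-enriched mean and 0.0017 with the cortex-enriched mean as covariate. The causes of the other shifts were not tested. ENSRNOG00000011073 was called in all 38 other fits and the other 3 identifiers in 32 of 38. Medians of symbol lists were not run. Precision was lowest for genes below 1 CPM, at a median standard error of 0.22 (log2).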
